A study of Mus musculus with 21 samples.

Results

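Mice fed a high-fat diet with the higher dose of fermented grain were set against mice fed a normal diet, to see which effects of high-fat feeding were still present at that dose. The comparison used the 3 arrays whose titles name the group H_FMG and the 3 whose titles name ND, which are 6 of the 21 arrays of the series. It covered all 16248 genes that had a probe with a single gene symbol, and where a gene had several such probes the brightest one stood for it. The tissue was epididymal fat, the abdominal pad that lies along the epididymis, and the study's title asks for dose-dependent effects of the grain on adiposity.

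H_FMG mice ate a diet with 40% of its energy from fat and 0.9% by weight of fermented mixed grain. HFD mice ate a diet with the same 40% and no supplement, and they serve here to say what high-fat feeding alone did. ND mice ate a diet with 10% of energy from fat and no grain, so H_FMG and ND mice differed in both the fat and the grain. All were male C57BL/6J mice, an inbred strain that becomes obese on such diets, which arrived at 4 weeks of age, were caged singly, spent 1 week on chow and then 12 weeks on their diets. The labels state 10 mice for ND and for HFD and no number for H_FMG, and the sources used here do not say how mice were chosen for the arrays. Arrays are named by group and by the number in the title. Nothing further says that they came from separate animals, so p-values measure the spread between arrays of the same group. Except where stated, that spread was estimated over all groups of the series, including those not compared here.

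White fat stores triglyceride and secretes hormones such as leptin and adiponectin. When it expands on a high-fat diet, macrophages enter it, take up lipid and build large lysosomes, while the enzymes that make fatty acids from sugar become less abundant in the adipocytes. Around the fat cells, fibroblasts lay down matrix and endothelial cells supply vessels. In whole tissue, more cells of a type and more RNA per cell cannot be told apart.

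Values are log2 levels, on which a difference of 1 means a doubling, and array medians over all 21 arrays ran from 4.23 to 4.39. Having 3 arrays in each group limits the precision, and the median standard error of an H_FMG minus ND difference was 0.15. The fatty acid carrier Fabp4 read high, between 12.25 and 12.26 in H_FMG, 12.08 and 12.17 in HFD and 12.19 and 12.26 in ND. Lcn8, a lipocalin of the epididymal duct, stayed between 3.33 and 4.19 in these arrays. These levels went with the tissue label. Of the sperm genes, Odf1 read high, between 10.89 and 11.5 in these arrays, and Pgk2 low, between 2.51 and 3.04. The source of the Odf1 signal was not tested. The ND array numbered 9 stood apart from ND arrays 6 and 8. Of the 21 arrays it had the highest median, 4.39, and the smallest standard deviation over probes, 1.823, beside 1.905 to 2.019 in the others. Its mean over 11 measured genes of lipid-laden macrophages lay 0.64 above the ND mean, against 0.23 and 0.41 below it in the other two, and its mean over 17 genes of fatty acid and triglyceride synthesis lay 0.44 below, against 0.25 and 0.19 above. H_FMG array 3 lay nearest the HFD arrays. For a gene described, the value without ND array 9 is given where leaving it out changed a call or turned a direction. It is also given where the difference moved by over 1.5 times. Calls that appear without ND array 9 are also given without both that array and H_FMG array 3, except for Tm4sf19 and Dpt. Genes of chromosomes 7, 8, 9 and X, and of much of 6, were with few exceptions not analysed here.

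A single gene passed the test in H_FMG against ND. At an adjusted p under 0.05 (limma, Benjamini-Hochberg over all 16248 genes), 1 gene rose and 0 fell, 0.00615% of those tested. An unadjusted p under 0.05 was reached by 1359 genes (8.36%), 716 of them higher and 643 lower in H_FMG. The arrays of the 2 groups did not overlap for 1671 genes (10.3%), with H_FMG higher for 779 (4.79%) and lower for 892 (5.49%). Set against the same ND arrays, HFD gave 1403 genes past the threshold (8.63%), of which 1063 rose (6.54%) and 340 fell (2.09%). That set depended on single arrays and on scaling: without HFD array 6 it held 368 genes, 320 higher and 48 lower, and with arrays centred on their medians 1603 higher and 148 lower.

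**Figure D1:**
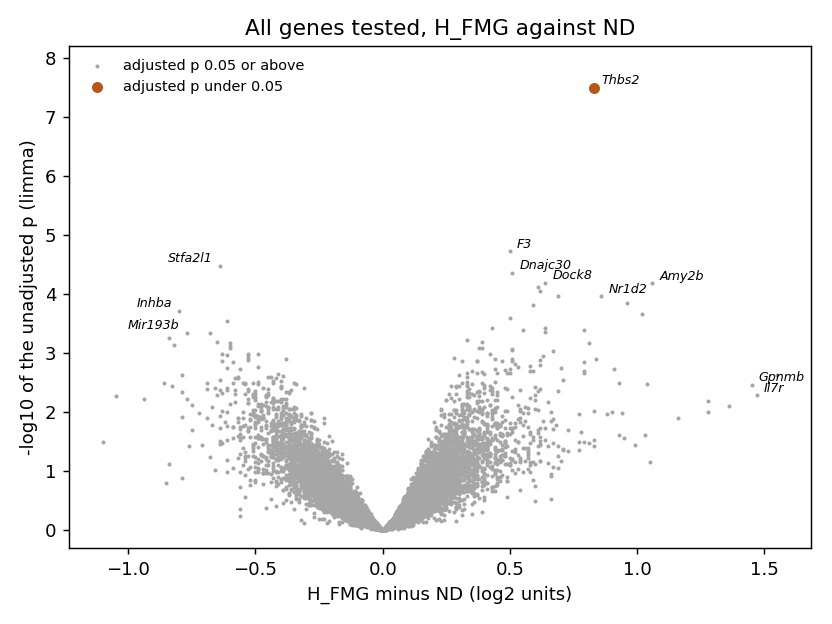
Each point is 1 of the 16248 genes. The horizontal axis is the H_FMG minus ND difference in log2 units and the vertical axis is −log10 of the unadjusted limma p. Thbs2 stands alone at the top right, and every other gene has an adjusted p of 0.05 or above.

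The gene that rose was Thbs2 on chromosome 17. It encodes thrombospondin-2, a secreted glycoprotein of fibroblasts that binds matrix proteases and restrains vessel growth, and in mice it shapes collagen fibrils. Its level was 7.24, 7.18 and 7.31 in H_FMG arrays 3, 6 and 8, then 7.25, 7.50 and 7.32 in HFD arrays 4, 6 and 7, and 6.43, 6.47 and 6.34 in ND arrays 6, 8 and 9. All H_FMG levels lay well above all ND levels and within or just under the range of the HFD arrays, and ND array 9 did not stand apart. The means were 7.24 ± 0.067 in H_FMG and 6.41 ± 0.066 in ND (SD, n = 3 each), a difference of 0.83 ± 0.10 (SE) with an adjusted limma p of 0.000525. HFD minus ND was 0.94, with an adjusted p of 6.36e-05. H_FMG minus HFD was −0.11, with a 95% interval from −0.31 to 0.088. Thbs2 stayed past the threshold when any 1 of the 6 arrays was left out, with an adjusted p between 0.00162 and 0.00916. It did not when the spread was estimated from the 6 arrays alone (adjusted p = 0.61). Its relative Thbs1, chosen for mention after its values were seen, had an H_FMG minus ND difference of 0.0089 ± 0.21.

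The promoter of Thbs2 is shown because this was the gene that passed the test, and that of F3, which encodes tissue factor, because it had the next smallest p. Both are RefSeq windows of assembly GRCm38.p6, from 250 bases before the annotated start to 50 after it, printed along the gene's strand. Capitals in the Thbs2 window mark CCAAT or its reverse complement ATTGG. In the F3 window they mark TGANTCA, a motif bound by AP-1 factors, and GGGCGG or its reverse complement CCGCCC, a motif bound by Sp1.
Thbs2, chr17:14694213-14694512, minus strand: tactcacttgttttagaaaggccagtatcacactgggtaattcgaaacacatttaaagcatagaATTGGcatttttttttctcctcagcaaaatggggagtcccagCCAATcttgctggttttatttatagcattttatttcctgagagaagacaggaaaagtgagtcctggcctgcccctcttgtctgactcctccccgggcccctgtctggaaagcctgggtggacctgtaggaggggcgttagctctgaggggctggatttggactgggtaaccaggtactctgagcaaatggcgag
F3, chr3:121723287-121723586, plus strand: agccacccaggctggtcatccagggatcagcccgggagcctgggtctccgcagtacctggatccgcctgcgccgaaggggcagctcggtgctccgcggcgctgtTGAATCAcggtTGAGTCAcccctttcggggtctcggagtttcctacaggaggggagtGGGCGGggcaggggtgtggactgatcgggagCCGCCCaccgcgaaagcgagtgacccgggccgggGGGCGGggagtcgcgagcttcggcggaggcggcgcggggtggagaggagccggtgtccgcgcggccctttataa
Both strands were searched. CCAAT occurred 2 times in the Thbs2 window, and 37.4% of 32544 RefSeq promoter windows of this length hold it. In the F3 window TGANTCA occurred 2 times and GGGCGG 3 times, and 7.79% and 35.9% of the windows hold them. TATAAA or its reverse complement occurred 1 time in each of the 2 windows and in 13.6% of all. The searched motifs do not overlap in these windows, and a match describes letters, not binding.

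The next smallest p-values belonged to genes that did not pass. F3 starts blood clotting and had levels of 7.59, 7.64 and 7.71 in H_FMG, 7.46, 7.63 and 7.41 in HFD and 7.18, 7.26 and 7.01 in ND. Every H_FMG level was above every ND level, and the difference was 0.50 ± 0.09 with an adjusted p of 0.154. Dock8, an exchange factor that guides the movement of immune cells, stood at 8.82, 8.62 and 8.70 in H_FMG, 8.80, 8.70 and 8.74 in HFD and 7.94, 7.95 and 8.34 in ND. The H_FMG and HFD arrays were level with each other, and ND array 9 was the ND array nearest to them. Its H_FMG minus ND difference was 0.64 ± 0.13 (adjusted p = 0.174), and 0.77 ± 0.12 without ND array 9 (adjusted p = 0.0133), a call lost without H_FMG array 3 as well (adjusted p = 0.0612). Dnajc30, a mitochondrial protein of the DnaJ family, had an H_FMG minus ND difference of 0.51 ± 0.10 (adjusted p = 0.174).

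Amy2b, a pancreatic-type amylase, had a different pattern from these. It read 3.20, 2.64 and 3.22 in H_FMG, 1.78, 2.0 and 1.90 in HFD and 1.35, 2.37 and 2.17 in ND. All 3 H_FMG levels were above all HFD and ND levels, which overlapped each other. H_FMG minus ND was 1.06 ± 0.21 (adjusted p = 0.174) and H_FMG minus HFD 1.13 (adjusted p = 0.0816). These levels lie below the array medians, and amylase genes have near-identical copies, so the probe may read more than 1 of them.

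Among the lower values, Inhba, which encodes the subunit of activin A, stood at 3.81, 3.84 and 3.70 in H_FMG, 3.65, 3.89 and 3.59 in HFD and 4.49, 4.48 and 4.79 in ND. The H_FMG arrays lay inside the range of the HFD arrays and below all ND arrays, with an H_FMG minus ND difference of −0.80 ± 0.18 (adjusted p = 0.239). Stfa2l1, of the stefin family of cysteine protease inhibitors, had a difference of −0.64 ± 0.12 (adjusted p = 0.174), and −0.78 without ND array 6 (adjusted p = 0.0161). Krtap21-1, a hair keratin-associated protein, differed by −0.61, and Tcl1b4, of a gene family expressed in early embryos, by −0.68, with adjusted p of 0.289 and 0.327. Mean levels in H_FMG and ND were 1.86 and 2.5 for Stfa2l1, 2.37 and 2.99 for Krtap21-1 and 3.9 and 4.58 for Tcl1b4. Those of Stfa2l1 and Krtap21-1 lie below the array medians. Stefins and Tcl1b genes form families of close copies, so the probes of Stfa2l1 and Tcl1b4 too may read more than 1 gene.

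Mir193b is a microRNA gene of chromosome 16 that acts in the differentiation of mouse brown fat cells. Its probe read 2.78, 3.03 and 2.77 in H_FMG, 3.21, 3.25 and 3.08 in HFD and 3.78, 3.99 and 3.14 in ND. The H_FMG arrays were the lowest of the 9, and ND array 9 lay among the HFD arrays. All these levels lie below the array medians. The difference between H_FMG and ND was −0.77 ± 0.18 with an adjusted p of 0.327, and −1.02 ± 0.17 without ND array 9 (adjusted p = 0.0165). Without both that array and H_FMG array 3 the adjusted p was 0.0716. The probe is designed to the gene, so it does not say which arm or how much mature microRNA was present. Both mature arms are shown, from RefSeq on assembly GRCm38.p6, with the seed, bases 2 to 8, in capitals. The seeds of the arms differ.
mmu-miR-193b-5p: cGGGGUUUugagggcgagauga
mmu-miR-193b-3p: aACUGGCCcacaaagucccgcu

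**Figure D2:**
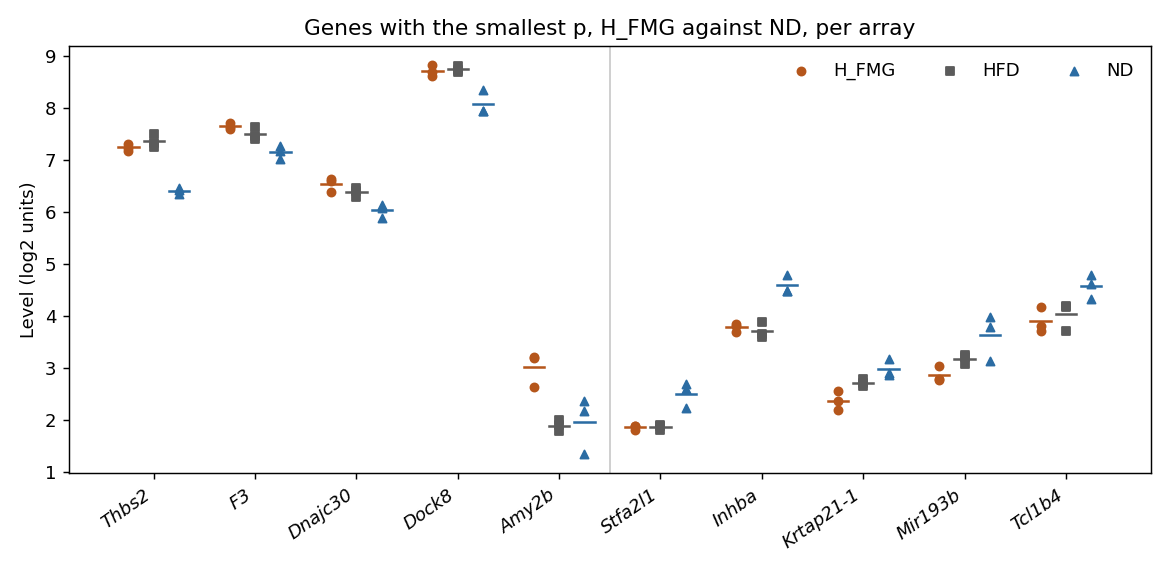
Levels in log2 units of the 5 genes with the smallest p among those higher in H_FMG (left of the line) and the 5 among those lower (right), with H_FMG, HFD and ND side by side for each gene. Symbols are single arrays and short bars are means. The H_FMG arrays lie apart from the ND arrays for all 10 genes, which the choice by p favours, and lie near the HFD arrays for most, with Amy2b high in H_FMG only.

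Of the 1403 genes that passed in HFD against ND, 1 passed in H_FMG against ND in the same direction, and that was Thbs2. Without ND array 9 in both comparisons the count was 21, and with ND array 9 and H_FMG array 3 both left out it was 6. The 1063 genes higher in HFD had a median H_FMG minus ND difference of 0.25, with quartiles of 0.16 and 0.37, beside a median HFD minus ND difference of 0.63. Over all 16248 genes these medians were 0.0034 for H_FMG minus ND and −0.041 for HFD minus ND. The genes were chosen with the HFD and ND arrays, so the gap between those 2 groups is fixed by the choice. H_FMG arrays were not used for it, but both comparisons share the 3 ND arrays.

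Single H_FMG arrays differed in how far they lay from ND over these genes. Relative to the ND mean, the median over the 1063 genes was 0.43 in H_FMG array 3, 0.24 in array 6 and 0.075 in array 8. In HFD arrays 4, 6 and 7 it was 0.57, 0.72 and 0.59, and in ND arrays 6, 8 and 9 it was 0.011, −0.037 and 0.026. All 3 H_FMG arrays lay between the ND and the HFD arrays, with array 3 nearer to HFD and array 8 nearer to ND. Choosing genes by the gap between HFD and ND favours such a place for any other group, so it is a description. Without H_FMG array 3 the median H_FMG minus ND difference was 0.16. For the 340 genes lower in HFD, the array medians were −0.35, −0.23 and −0.16 in H_FMG, −0.52, −0.61 and −0.54 in HFD and −0.016, −0.0014 and 0.055 in ND. Their median differences were −0.26 for H_FMG minus ND and −0.56 for HFD minus ND. In H_FMG against HFD 1 gene passed (0.00615%), Acr, and it was not one of the 1403. That count was 257 without H_FMG array 3 and 566 with arrays weighted by their fit. A p that misses the threshold does not show that levels were alike.

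**Figure D3:**
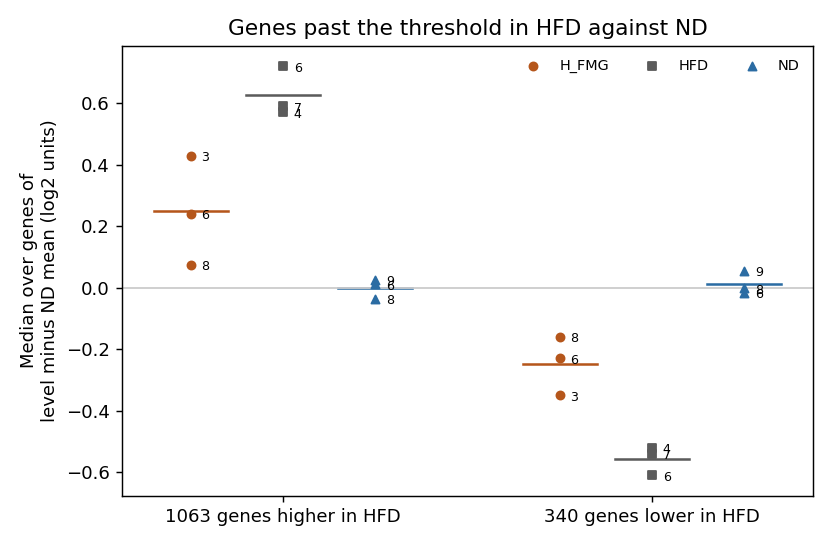
For each array, the median over genes of its level minus the ND mean, in log2 units, for the genes that passed in HFD against ND. Each symbol is 1 array with its number, and lines are means of 3 arrays. The H_FMG arrays spread from 0.075 to 0.43 for the 1063 genes higher in HFD and from −0.35 to −0.16 for the 340 lower, between the HFD and the ND arrays. The choice of genes favours that place between.

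Some of the strongest responses to the high-fat diet had an unadjusted p above 0.05 in H_FMG against ND. These genes were picked for that contrast, so their values are a description. Olfr111, an olfactory receptor gene, read 6.34, 5.45 and 4.73 in H_FMG, 6.91, 7.64 and 7.48 in HFD and 3.74, 3.56 and 6.08 in ND. The H_FMG arrays lay below all HFD arrays, and ND array 9 lay more than 2 units above the other ND arrays. H_FMG minus ND was 1.05 ± 0.55, and 1.86 without ND array 9. Ms4a7, a tetraspan protein of tissue macrophages, read 7.60, 6.98 and 6.12 in H_FMG, 8.19, 8.61 and 8.32 in HFD and 6.27, 6.25 and 6.86 in ND. H_FMG array 8 was the lowest of the 9 arrays, and H_FMG arrays 3 and 6 were above all ND arrays. The mast cell protease Cpa3 had an H_FMG minus ND difference of 0.66 ± 0.62 and an HFD minus ND difference of 2.36. Stap1, an adaptor protein of leukocytes, and Zranb3, a helicase that acts at stalled replication forks, had H_FMG minus ND differences of 0.49 ± 0.43 and 0.66 ± 0.40, beside 1.94 and 1.88 for HFD minus ND. Without ND array 9 the H_FMG minus ND differences were 1.05 for Stap1 and 1.18 for Zranb3.

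In the other direction, Pck1 makes the glycerol backbone of triglyceride in fat cells. Its level was 10.35, 10.70 and 11.16 in H_FMG, 9.94, 9.35 and 9.87 in HFD and 11.03, 10.89 and 10.44 in ND. The H_FMG levels covered the range of the ND levels, and all HFD levels were below both. H_FMG minus ND was −0.055 ± 0.28, or −0.23 without ND array 9, and HFD minus ND was −1.07, while H_FMG minus HFD was 1.01 with an adjusted p of 0.144. Rasd1, a Ras-related protein induced by glucocorticoids, read 8.07, 8.24 and 8.18 in H_FMG, 6.98, 7.39 and 7.46 in HFD and 8.52, 8.55 and 7.99 in ND. Again the H_FMG arrays were above all HFD arrays and inside the range of ND, with an H_FMG minus ND difference of −0.19 ± 0.24, and −0.37 without ND array 9. Orm3, an acute-phase plasma protein, had an H_FMG minus ND difference of −0.52 ± 0.37 beside −1.83 for HFD minus ND. Rnase2a, an eosinophil-type ribonuclease, and the small nucleolar RNA Snora73b had differences of −0.27 ± 0.41 and −0.10 ± 0.31 in H_FMG minus ND. Without ND array 9 these were −0.61 for Rnase2a and 0.39 for Snora73b, whose direction turned.

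Of the 36 gene lists examined, that of lipid-laden macrophages had the largest median H_FMG minus ND difference, and 0 of its genes passed the limma test. Lists and members were chosen with earlier results of these data known, so the rank and the counts of this list are a description. Gpnmb, a glycoprotein of lysosome-rich macrophages, read 10.73, 10.67 and 9.91 in H_FMG, 11.20, 11.46 and 11 in HFD and 8.45, 7.95 and 10.57 in ND. The H_FMG arrays were above ND arrays 6 and 8 by more than 1 unit, and ND array 9 lay among them. The difference was 1.45 ± 0.44 (adjusted p = 0.452), and 2.24 ± 0.29 without ND array 9 (adjusted p = 0.00162). Without ND array 9 and H_FMG array 3 it was 2.09 (adjusted p = 0.0154). Trem2, the lipid-sensing receptor of these cells, stood at 8.31, 7.99 and 7.13 in H_FMG, 8.86, 9.18 and 8.54 in HFD and 6.32, 5.99 and 8.03 in ND. It had the same layout, with ND array 9 inside the H_FMG range, and its difference was 1.03 ± 0.42 (adjusted p = 0.567), or 1.65 without ND array 9 (adjusted p = 0.071).

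Of the 11 measured genes that mark lipid-laden macrophages, 7 were higher in H_FMG at an unadjusted p under 0.05, against 4.41% of all genes. Their median H_FMG minus ND difference was 0.53, against 0.0034 over all genes, and 0.97 for HFD minus ND. They mark the same cells, so they are not independent. In 0 of the 11 did all H_FMG arrays lie above all ND arrays, against 4.79% of all genes. Relative to ND, the list mean was 0.92, 0.71 and 0.25 in H_FMG, 1.18, 1.41 and 1.11 in HFD and −0.23, −0.41 and 0.64 in ND. Among its members, Atp6v0d2, a proton pump subunit, differed by 1.28 ± 0.42, Lgals3, a lectin of phagocytes, by 0.53 ± 0.18, and Plin2, which coats lipid droplets, by 0.44 ± 0.15, with adjusted p of 0.476, 0.497 and 0.498. Without ND array 9 Atp6v0d2 differed by 1.90 ± 0.37 (adjusted p = 0.0408), and without H_FMG array 3 as well by 1.63 (adjusted p = 0.153).

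General macrophage identity differed less. Of 14 measured genes, 2 were higher at an unadjusted p under 0.05, against 4.41% of all genes. Their median H_FMG minus ND difference was 0.21, beside 0.95 for HFD minus ND. It depended on single arrays: it was 0.082 without H_FMG array 3, 0.37 without H_FMG array 8 and 0.33 without ND array 9. Cd68, a lysosomal glycoprotein of macrophages, read 10.85, 10.52 and 9.84 in H_FMG, 11.18, 11.33 and 11.03 in HFD and 9.22, 9.13 and 10.38 in ND. H_FMG arrays 3 and 6 were above all ND arrays and array 8 was below ND array 9. Its difference was 0.83 ± 0.29 (adjusted p = 0.498). Fcgr1, a receptor for immunoglobulin G, differed by 0.78 ± 0.31, and Adgre1, the surface receptor by which mouse macrophages are stained, by 0.43 ± 0.31, or 0.82 without ND array 9.

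The lysosome and proton pump list had 19 measured genes and a median H_FMG minus ND difference of 0.30, beside 0.80 for HFD minus ND. An unadjusted p under 0.05 was reached by 6, all higher in H_FMG, against 4.41% of all genes on that side. Lipa, Ctsk, Ctsl and Atp6v0d2 are also in the list of lipid-laden macrophages, and Atp6v0d2 and Lipa count in the totals of both lists. Npc1, which exports cholesterol from lysosomes, read 7.90, 7.46 and 7.24 in H_FMG, 7.99, 8.13 and 8.02 in HFD and 7.08, 7.19 and 7.13 in ND. Here ND array 9 lay with the other ND arrays, and all H_FMG arrays were above them, array 8 by little. The difference was 0.40 ± 0.15 (adjusted p = 0.527). Lipa, the lysosomal acid lipase, differed by 0.55 ± 0.23 and Atp6v0a1, another pump subunit, by 0.45 ± 0.17.

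Of 20 measured chemokines and cytokines, 2 were higher and 1 lower in H_FMG at an unadjusted p under 0.05, against 4.41% and 3.96% of all genes. The monocyte attractant Ccl2 read 6.54, 6.24 and 5.60 in H_FMG, 6.64, 7.04 and 6.55 in HFD and 5.40, 5.23 and 5.75 in ND, a difference of 0.67 ± 0.25 (adjusted p = 0.518). H_FMG arrays 3 and 6 were above all ND arrays. Ccl9 differed by 0.45 ± 0.17, and Il1b, which encodes interleukin-1 beta, by −0.52 ± 0.20. The mean levels of Il1b, 2.72 in H_FMG and 3.24 in ND, lie below the array medians. Il7r, the interleukin-7 receptor chain of lymphocytes, read 8.21, 7.85 and 7.22 in H_FMG, 8.84, 9.06 and 8.75 in HFD and 5.50, 5.49 and 7.87 in ND. Its layout was that of Gpnmb, with ND array 9 among the H_FMG arrays. The difference was 1.47 ± 0.47 (adjusted p = 0.453), and 2.26 ± 0.36 without ND array 9 (adjusted p = 0.0133). Without H_FMG array 3 as well it was 2.04 (adjusted p = 0.0612). Of the 4 measured lymphocyte genes the other 3, Cd8a, Cd2 and Gzma, had H_FMG minus ND differences from −0.33 to 0.15.

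**Figure D4:**
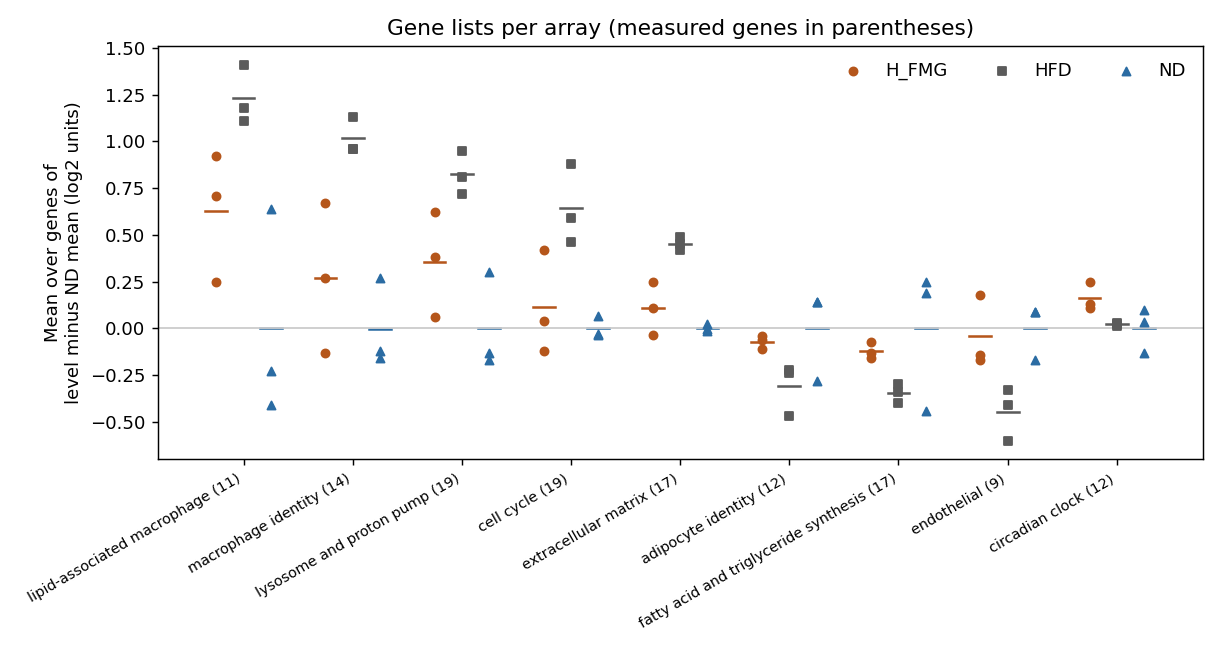
For each gene list, the mean over its measured genes of level minus ND mean, in log2 units, with H_FMG, HFD and ND side by side. Symbols are single arrays, bars are means of 3, and numbers in parentheses are measured genes. In the macrophage and lysosome lists the H_FMG arrays lie between HFD and ND and overlap the ND arrays, of which array 9 is the highest.

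Enzymes of fatty acid synthesis leaned the other way. Fasn, fatty acid synthase, read 10.76, 10.67 and 10.95 in H_FMG, 10.79, 10.63 and 10.61 in HFD and 11.41, 11.43 and 10.90 in ND. The H_FMG arrays were near the HFD arrays and below ND arrays 6 and 8, with ND array 9 among them. Its H_FMG minus ND difference was −0.45 ± 0.13 (adjusted p = 0.445), and −0.63 without ND array 9 (adjusted p = 0.0301), a call lost without both that array and H_FMG array 3 (adjusted p = 0.0943). Acss2, which activates acetate, read 7.44, 7.21 and 7.35 in H_FMG, 7.21, 7.58 and 7.37 in HFD and 8.49, 8.13 and 7.14 in ND. ND array 9 was the lowest of the 9 arrays. The difference was −0.59 ± 0.23 (adjusted p = 0.539), −0.98 without ND array 9 (adjusted p = 0.0179) and −1.03 without H_FMG array 3 as well (adjusted p = 0.0494).

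Acly, which splits citrate into acetyl-CoA, stood at 8.11, 7.95 and 8.11 in H_FMG, 8.16, 8.23 and 8.09 in HFD and 8.66, 8.51 and 8.12 in ND. All H_FMG arrays were below all ND arrays, array 9 only just, and the difference was −0.37 ± 0.13 (adjusted p = 0.497). Acaca, acetyl-CoA carboxylase, differed by −0.47 ± 0.21, and by −0.81 without ND array 9 (adjusted p = 0.0408) but −0.66 without both arrays (adjusted p = 0.148). These 4 were the members of the 17 measured genes of fatty acid and triglyceride synthesis with an unadjusted p under 0.05, against 3.96% of all genes on the lower side. The list's median H_FMG minus ND difference was −0.055, beside −0.30 for HFD minus ND. It was 0.036 without ND array 6, 0.0048 without ND array 8 and −0.23 without ND array 9. Scd1, the desaturase that makes oleic acid, had a difference of 0.0011 ± 0.12, and Srebf1, the regulator of these enzymes, of 0.12 ± 0.13. They were −0.06 for Scd1 and 0.011 for Srebf1 without ND array 9.

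Genes of the fat cell itself differed little between H_FMG and ND. Over 12 measured genes of adipocyte identity the median difference was −0.022, beside −0.32 for HFD minus ND, and without ND array 9 it was −0.20. Lep, the hormone leptin, read 11.70, 11.28 and 11.02 in H_FMG, 11.48, 11.46 and 11.61 in HFD and 11.20, 11.21 and 10.86 in ND, a difference of 0.24 ± 0.18 (adjusted p = 0.738), or 0.13 without ND array 9. The H_FMG and ND arrays overlapped. Adiponectin, encoded by Adipoq, differed by −0.10 ± 0.17, and Pparg, the regulator of fat cell identity, by −0.046 ± 0.12, and without ND array 9 by −0.28 and −0.22. Cidea, a lipid droplet protein that is also abundant in brown fat, read 4.05, 3.95 and 4.04 in H_FMG, 4.07, 3.93 and 3.94 in HFD and 4.47, 4.41 and 4.61 in ND. All H_FMG and HFD arrays were below all ND arrays, and its H_FMG minus ND difference was −0.49 ± 0.14 (adjusted p = 0.428).

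For a pair of secreted factors the H_FMG arrays lay above both other groups, though neither passed the test. Vegfa, the vessel growth factor, read 8.90, 8.93 and 9.47 in H_FMG, 8.45, 8.0 and 8.2 in HFD and 8.73, 8.72 and 8.70 in ND. Every H_FMG array was above every ND array, and every HFD array was below them. H_FMG minus ND was 0.38 ± 0.17 (adjusted p = 0.586) and H_FMG minus HFD was 0.89 (adjusted p = 0.0816). Sfrp5, a Wnt antagonist secreted by fat cells, read 9.59, 9.69 and 9.61 in H_FMG, 9.28, 8.80 and 9.4 in HFD and 9.14, 9.16 and 8.93 in ND. Its H_FMG arrays were again the highest of the 9, with a difference from ND of 0.56 ± 0.19 (adjusted p = 0.497). Mest, a marker of fat cell enlargement in mice, differed by 0.33 ± 0.16, but by 0.095 without ND array 9.

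**Figure D5:**
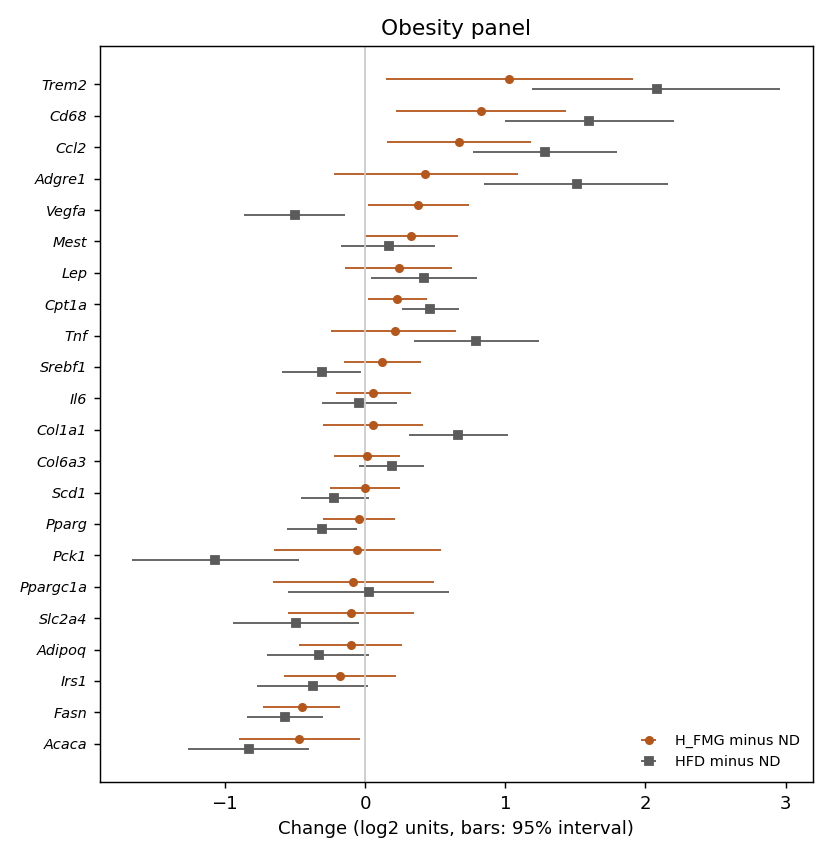
H_FMG minus ND (circles) and HFD minus ND (squares) differences in log2 units for the 22 measured genes of a panel of obesity markers, with 95% intervals as bars. Both share the 3 ND arrays. The H_FMG intervals of Trem2, Cd68, Ccl2, Vegfa and Cpt1a lie above 0 and those of Fasn and Acaca below it, none past the adjusted threshold, while that of Pck1 spans 0.

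Among vessel wall genes, the H_FMG arrays lay below all ND arrays for 1 of 9 endothelial genes, Vwf. They did so for 1 of 6 smooth muscle and pericyte genes, Myh11, against 5.49% of all genes. No other gene of either list was lower at an unadjusted limma p under 0.05, against 3.96% of all genes. Other members differed upward, Tek by 0.17, Eng by 0.12 and Pdgfrb by 0.12. Without ND array 9 Tek and Eng differed by −0.026 and −0.035. Vwf, the clotting factor carrier made by endothelium, read 6.53, 6.55 and 6.89 in H_FMG, 6.35, 6.16 and 6.43 in HFD and 6.98, 7.19 and 6.91 in ND, with H_FMG array 8 just under ND array 9. The difference was −0.37 ± 0.12 (adjusted p = 0.452), beside −0.71 for HFD minus ND. The median of the 9 measured endothelial genes was −0.033, or −0.075 without ND array 9, beside −0.40 for HFD minus ND. Myh11, the smooth muscle myosin, read 6.95, 6.80 and 6.98 in H_FMG, 6.58, 6.51 and 6.94 in HFD and 7.83, 7.90 and 7.09 in ND. The H_FMG arrays were below all ND arrays, of which array 9 was the lowest, and the difference was −0.69 ± 0.21 (adjusted p = 0.452).

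Matrix and cell division lists had smaller median differences from ND in H_FMG than in HFD, and their H_FMG arrays were spread. Relative to the ND mean, the matrix list mean was 0.25, 0.11 and −0.033 in H_FMG arrays 3, 6 and 8. The cell cycle list mean was 0.42, 0.038 and −0.12 in these, beside 0.46, 0.88 and 0.59 in HFD arrays 4, 6 and 7. Of 17 measured matrix genes 0 reached an unadjusted limma p under 0.05 in H_FMG against ND, beside 8.36% of all genes. Their median difference was 0.064, beside 0.44 for HFD minus ND. Lum, a collagen-binding proteoglycan, read 8.32, 7.81 and 7.10 in H_FMG, 8.74, 8.99 and 8.74 in HFD and 7.23, 7.36 and 7.68 in ND. H_FMG array 8 was the lowest of the 9 and H_FMG arrays 3 and 6 lay above all ND arrays, a difference of 0.32 ± 0.26 (adjusted p = 0.762). Mmp14, a membrane-bound matrix protease, differed by 0.33 ± 0.16 and Col1a1, a chain of type I collagen, by 0.056 ± 0.17, or 0.18 without ND array 9. Of 19 cell cycle genes, 2 were higher and 1 lower at an unadjusted p under 0.05, against 4.41% and 3.96% of all genes. Their median was 0.15, beside 0.77 for HFD minus ND, and 0.0067 without H_FMG array 3.

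Of the clock genes, Nr1d1 and Nr1d2, a pair of related repressors, had H_FMG arrays above both other groups. Nr1d2, which encodes REV-ERB beta, read 6.97, 6.59 and 6.85 in H_FMG, 6.34, 6.23 and 5.99 in HFD and 6.09, 6.05 and 5.69 in ND. The 3 H_FMG arrays were the highest of the 9, and H_FMG minus ND was 0.86 ± 0.18 (adjusted p = 0.179). Nr1d1, for REV-ERB alpha, read 8.38, 8.2 and 8.44 in H_FMG, 7.50, 7.27 and 7.49 in HFD and 7.88, 7.99 and 6.83 in ND. Again the H_FMG arrays were the highest, with a difference of 0.77 ± 0.27 (adjusted p = 0.498), but 0.40 without ND array 9 (adjusted p = 0.652). Per1, a period repressor, differed by 0.44 ± 0.16 and the cryptochrome Cry1 by −0.28 ± 0.13. Of the 12 measured clock genes, 3 were higher and 1 lower at an unadjusted p under 0.05, against 4.41% and 3.96% of all genes. The list's median difference was 0.041, beside 0.0034 over all genes.

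Among 15 measured genes of antioxidant defence, 3 were higher and 1 lower at an unadjusted p under 0.05, against 4.41% and 3.96% of all genes. Their median difference was 0.077, and −0.033 without ND array 9. Txnrd1, thioredoxin reductase, read 7.48, 7.24 and 7.27 in H_FMG, 7.49, 7.51 and 7.33 in HFD and 6.94, 6.89 and 7.01 in ND, a difference of 0.38 ± 0.12 (adjusted p = 0.452). H_FMG and HFD arrays were all above the ND arrays. Gstm1, a glutathione transferase, read 7.81, 7.68 and 7.77 in H_FMG, 7.37, 7.22 and 7.41 in HFD and 7.48, 7.52 and 7.06 in ND, so that H_FMG alone stood high. Its difference from ND was 0.40 ± 0.12 (adjusted p = 0.452), or 0.25 without ND array 9. Gsta3, another transferase, differed by −0.75 ± 0.25, and by −1.12 without ND array 9 (adjusted p = 0.0477), a call lost without both that array and H_FMG array 3 (adjusted p = 0.106). Transferases of a class are alike in sequence, so their probes may read more than 1 gene.

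Fatty acid oxidation had 2 of 16 measured genes higher at an unadjusted p under 0.05, against 4.41% of all genes, and a median difference of 0.063, or −0.082 without ND array 9. Ehhadh, a peroxisomal enzyme, differed by 0.57 ± 0.20 and Cpt1a, which admits fatty acids to mitochondria, by 0.23 ± 0.10, with adjusted p of 0.498 and 0.579. Without ND array 9 Ehhadh differed by 0.34. Among immediate early genes, which respond within minutes to stimuli, Fos read 7.56, 6.37 and 6.27 in H_FMG, 7.36, 7.43 and 7.06 in HFD and 5.63, 5.14 and 6.74 in ND. H_FMG array 3 stood above the other H_FMG arrays, ND array 9 above the other ND arrays, and the difference was 0.90 ± 0.32 (adjusted p = 0.498). Of 13 measured immediate early genes, 2 were higher and 0 lower at an unadjusted p under 0.05, against 4.41% and 3.96% of all genes. Their median difference was 0.09, or −0.021 without H_FMG array 3, and Nr4a1 differed by −0.36 ± 0.20. In the complement list, 1 of 11 measured genes was higher and 1 lower at an unadjusted p under 0.05. The list's median difference was 0.057, or −0.065 without H_FMG array 3. These 2 genes were the protease C1s1, at 0.61 ± 0.19 (adjusted p = 0.452), and the terminal component C6, at −0.52 ± 0.19 (adjusted p = 0.52).

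In the fit with all arrays, the remaining lists had median H_FMG minus ND differences between −0.16 and 0.11. The median difference was −0.096 over 10 mast cell genes, −0.003 over 6 B lymphocyte genes, 0.064 over 7 neutrophil genes and 0.031 over 8 genes of dendritic cells and MHC class II. It was −0.07 over 26 genes of the respiratory chain, −0.029 over 10 of branched-chain amino acid breakdown, 0.043 over 15 of insulin signalling and 0.055 over 15 of endoplasmic reticulum stress. It was 0.066 over 7 genes of fibroblasts and progenitors, −0.13 over 6 of smooth muscle and pericytes, −0.082 over 6 of brown and beige fat cells and 0.098 over 6 of lipolysis and lipid droplets. Over 14 interferon-induced genes it was 0.0015, over 12 of cholesterol synthesis 0.11 and over 13 acute-phase genes −0.01. For markers of other tissues that a fat pad can carry, the median was −0.16 over 8 mesothelial genes, 0.04 over 10 of the epididymal duct, 0.037 over 6 of skeletal muscle and 0.018 over 7 of sperm. Several of these medians rested on ND array 9. Without it they were −0.30 for branched-chain amino acid breakdown, −0.20 for the respiratory chain, −0.14 for insulin signalling, −0.32 for smooth muscle and pericytes and −0.11 for fibroblasts and progenitors. Those of cholesterol synthesis, lipolysis and acute-phase genes were then 0.0042, −0.082 and −0.14, and the medians of mesothelial, sperm, muscle and mast cell genes −0.31, −0.11, 0.10 and −0.16. For neutrophil, dendritic cell, endoplasmic reticulum stress, epididymal duct, interferon-induced and B lymphocyte genes they were −0.057, 0.12, 0.019, −0.0092, −0.042 and 0.023. Among the sperm genes Acr, the sperm protease acrosin, had an H_FMG minus ND difference of 0.43 ± 0.10 (adjusted p = 0.327).

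Leaving out ND array 9 brought 22 genes past the threshold, 8 higher and 14 lower in H_FMG, and the genes named next were chosen after their values were seen. Tm4sf19, a tetraspan protein of the transmembrane 4 L family, read 8.53, 8.07 and 7.30 in H_FMG, 8.95, 9.55 and 8.99 in HFD and 5.84, 5.64 and 7.79 in ND. Dpt, which encodes the matrix protein dermatopontin, read 9.59, 9.76 and 9.68 in H_FMG, 9.78, 9.97 and 9.91 in HFD and 10.42, 10.51 and 9.60 in ND. In both, ND array 9 lay among the H_FMG arrays and apart from ND arrays 6 and 8. Without it, the H_FMG minus ND differences were 2.23 ± 0.37 for Tm4sf19 and −0.79 ± 0.10 for Dpt, with adjusted p of 0.0172 and 0.00162. With H_FMG array 3 left out as well, 7 genes passed, 6 of them among the 22, so most of these calls were lost. The values of Tm4sf19 and Dpt in that fit are not given here. Down-weighting arrays by their fit, which gave ND array 9 a weight of 0.208, brought 29 genes past the threshold, 17 of them also among the 22. The part of ND array 9 in these results was not tested beyond leaving it out.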

How the data were processed

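Trizol-extracted total RNA was labelled for GeneChip whole-transcript arrays, per the labels' protocols. The authors deposited 1 log2 value per probe and array; the sources used here do not give background correction, summarisation or normalization, and the base was read from the values, 0.84 to 12.7. Among 24291 complete probes, 6085 carried no symbol, 1139 several and 17067 a single one, for 16248 genes, 668 of them with several probes. Promoter and microRNA sequences are RefSeq's. limma 3.58.1 in R 4.3.3 was fitted with 1 coefficient per group over 21 arrays, with an intensity trend and two-sided p-values adjusted by Benjamini-Hochberg over all genes. No pair of arrays held identical values (0 pairs), and no batch is given. Genes with the 5 smallest p per direction, the largest high-fat changes, list members and an obesity panel were named. Of 569 genes in 36 lists, 399 were measured. Members and lists were chosen with earlier results of these data known. The gene test was tested on simulated data. Alternatives changed normalization, probe choice, filter, trend, weights, arrays and blocks. Same-numbered H_FMG and ND arrays did not deviate together, but they are too few to decide whether the number pairs arrays.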

Additional observations from a re-analysis of the deposited data

Results flagged for a closer look

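Acr, which encodes the sperm protease acrosin, differed in opposite directions from ND in the 2 high-fat groups. Its level was 5.70, 5.66 and 5.82 in H_FMG, 5.18, 4.89 and 5.14 in HFD and 5.35, 5.30 and 5.25 in ND, so every H_FMG array was above and every HFD array below every ND array. H_FMG minus ND was 0.43 and HFD minus ND was −0.23. The difference between them, H_FMG minus HFD, was 0.66 with an adjusted limma p of 0.0342, the 1 gene that passed in that comparison. With arrays centred on their medians, with every probe tested, or without any one of H_FMG arrays 6 and 8 and HFD arrays 4, 6 and 7, 0 genes passed in H_FMG against HFD. With only the 2 groups fitted, 1 gene passed, and it was Nr1d1, not Acr. The median H_FMG minus ND difference of the 7 measured sperm genes, Acr included, was 0.018.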

How the results depend on the processing

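In H_FMG against ND the count of 1 gene, Thbs2, was the same with quantile normalization, median centring, dim genes left out, probe means, every probe tested and no intensity trend. It was 29 with array weights and 0 when the 2 groups were fitted alone (limma, 763 genes at an unadjusted p under 0.05). Leaving out 1 array gave 1 to 22 genes, the most without ND array 9, 4 without ND array 6 (Mir423, Rrp12, Stfa2l1 and Thbs2), 3 without H_FMG array 8 (Maml3, Naip2 and Thbs2) and 2 without ND array 8. The count without H_FMG array 3 and ND array 9, added after the data were seen, was 7. High-fat effects that remained numbered 29 with array weights, 0 with the H_FMG, HFD and ND arrays alone, 1 to 21 with 1 array left out and 6 with both left out. HFD against ND gave 2432 genes with array weights, 774 with 2 groups and 368 to 1457 with 1 array left out, 368 without HFD array 6 and 826 without HFD array 7. Median centring moved its split to 1603 of 1751 higher. H_FMG against HFD gave 0 with median centring and with every probe tested, 566 with array weights and 0 to 257 with 1 array left out, 257 without H_FMG array 3. Only the numbers 6 and 8 are shared between H_FMG and ND, and deviations of same-numbered arrays correlated at −0.11 and 0.05. Over all pairs of an H_FMG and an ND array the correlation ran from −0.11 to 0.14. So few shared numbers cannot decide whether the number pairs arrays. With a replicate block the counts were 0 in H_FMG against ND (812 at an unadjusted p under 0.05), 524 in HFD against ND, 26 in H_FMG against HFD and 0 remaining effects, and Thbs2 had an adjusted p of 0.484. Of 167 named genes, 45 changed sign under some alternative, none of them called, and 14 passed under some alternative only. With median centring the H_FMG minus ND medians of the adipocyte and endothelial lists were 0.023 and 0.012. The cause of these shifts was not tested. With 3 arrays per group, differences near the standard error of 0.15 were not detectable. Larger ones missed the threshold too, such as F3 at 0.50 ± 0.09 and Gpnmb at 1.45 ± 0.44.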
